A study of Drosophila melanogaster with 3 samples.

Results

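The DNA described here is the set of 435 BEAF-32-GFP summits that lay at a gene start, on its transcribed side. Pairs of coding genes that start close together and point away from each other were left out. They come from a list of 6070 summits that the authors kept by irreproducible discovery rate (IDR), a measure of how well ranks agree between replicates. Summits between, or within 500 bp of, the 5′ ends of coding genes that lie head to head at most 1000 bp apart were set aside, and of the rest those 0 to 500 bp downstream of the nearest protein-coding transcript start were kept. The 435 summits lie at 411 genes and make up 7.17% of the list. Another 2469 summits lay up to 500 bp upstream of such starts, 2310 were at head-to-head pairs and 856 were farther than 500 bp from every start.

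The samples were 3 biological replicates of 1 group: whole embryos of Drosophila melanogaster, 0 to 14 hours old and of both sexes pooled, from a transgenic line with GFP at the C terminus of BEAF-32. DNA sheared to 200 to 800 bp was recovered with an antibody against GFP and sequenced. The labels do not give the promoter of the transgene, whether the line keeps untagged BEAF-32, or the genotype behind the control alignment, and no untagged or mutant group was analysed here. Whole embryos hold many cell types, so a weak signal in every cell and a strong signal in a few cannot be told apart.

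BEAF-32 is a fly DNA-binding protein first known from a boundary element beside heat shock genes. It recognises clusters of CGATA and is known mainly from the promoters of widely used genes and from the borders of chromosome domains. Part of its sites overlap TATCGATA, the element of the transcription factor Dref. Downstream of a start, the DNA of a bound site is also transcribed, as 5′ untranslated region (UTR), first coding exon or first intron.

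The sequences at the strongest sites show where the recognised string stands. Of the members outside the arm left out here that have CGATA within 100 bp of the summit, the 6 with the highest signal are printed first, as 30 bases of the gene's strand centred on the copy nearest the summit. Capitals mark CGATA, which appears as TATCG where it lies on the opposite strand.
Paip2: tttacacgccaatCGATAgctgtttgattt
Rpn10: ggtcatacaaatcCGATAttttaatgccga
RpS30: ctaacgcctgacaCGATAgttgcacaacaa
Plap: gaaaacaaattatTATCGtacaataattgt
Ptpmeg2: catcgcttagcatCGATAacgaccgagaac
Atpalpha: CGATAcaataggcCGATAactctccatttg
In dm6 these are chr3R:12980795-12980824 (plus strand), chr3L:21537007-21537036 (plus), chr3R:20850530-20850559 (plus), chr2L:1170064-1170093 (minus), chrX:9658950-9658979 (minus) and chr3R:20948690-20948719 (plus). The copies at Paip2, Rpn10 and RpS30 were centred 18, 22 and 29 bp downstream of the start, and that at Ptpmeg2 181 bp downstream. At Atpalpha the copy nearest the summit was centred 9 bp upstream, so a summit downstream of a start does not place the string there.

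The next 3 sequences belong to the strongest other members with CGATA more than 100 bp downstream outside that arm, and the last 2 to the strongest such members with GGTCACACT, known as core promoter motif 1. These 5 were chosen after their values were seen, and capitals mark CGATA or motif 1 on either strand.
Tango10: gaatccatccataTATCGcatatgaagtgc
milt: acgacagagcggtTATCGgtgcacagcgat
TTLL4B: acaacaacaagaaCGATAaCGATAgcgcga
Ubr3: aggtgtagagcGGTCACACTggatgaaatt
indra: taatgtaacttAGTGTGACCggaatgcgca
They lie at chrX:11720401-11720430 (plus), chr2L:7037954-7037983 (plus), chr2L:3862903-3862932 (plus), chrX:7935897-7935926 (plus) and chr3L:1342385-1342414 (minus). The CGATA nearest the summit was centred 171, 146 and 250 bp downstream of the starts of Tango10, milt and TTLL4B. The motif 1 window of Ubr3 ran from 1 to 30 bp downstream of its start, and that of indra from 11 bp upstream to 18 bp downstream. Counted within 100 bp of every one of the 19252 coding starts, CGATA was found at 37.1%, TATCGATA at 6.45% and GGTCACACT at 4.42%, on either strand and with CGATA also counted where it lies inside TATCGATA.

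Most members lay close to the start. The median distance was 43 bp, with quartiles of 11 and 157.5 bp and a largest value of 475 bp. In all, 227 members (52.2%) were within 50 bp, 51 were 51 to 100 bp away and 157 (36.1%) were more than 100 bp away. The counts fell from the start outward and then rose to a low mound near 140 to 220 bp.

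**Figure D1:**
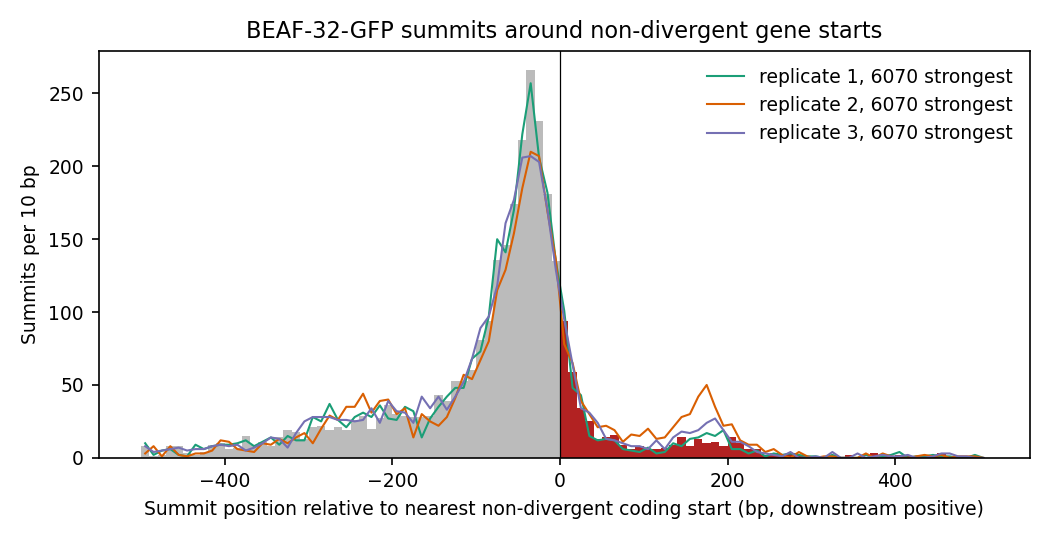
Number of summits per 10 bp around the nearest non-divergent coding start (x axis in bp, downstream positive). Bars are the IDR list, red for the 435 downstream summits and grey for the upstream ones, and lines are the 6070 strongest regions of each replicate; all 4 lists have a mode just upstream of the start, a fall across it and a low downstream mound that is highest in replicate 2.

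The replicate libraries placed different numbers of summits downstream. Among the 6070 strongest regions of each, 421 were downstream in replicate 1, 679 in replicate 2 and 529 in replicate 3, a mean of 543 ± 130 (SD, n = 3). As a share of all summits at non-divergent starts these were 14.6%, 23.3% and 17.9%, against 14.98% in the IDR list. Replicate 2 stood apart in the members more than 100 bp downstream, with 363 against 161 and 230, while the number within 50 bp was 220, 235 and 249. No read totals came with the lists, so their depth is unknown. With 3 replicates an exact sign test over libraries cannot give a two-sided p below 0.25, so for the comparisons across summits the direction in each library is given.

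The signal of a summit is the authors' own value, on a scale that is not stated, so levels were compared only within a list. Members were weaker than the list as a whole, with a median of 339 against 579 for all summits and 581 for upstream summits, and a range from 139 to 13947. In the upper 50% of the IDR list by signal stood 141 of the 435 members (32.4%) and 1239 of the 2469 upstream summits (50.2%). The odds ratio was 0.476 with 95% bounds of 0.381 and 0.593 (two-sided Fisher's exact p = 4.32e-11, adjusted over 13 comparisons, as for all adjusted values here). The 3 replicates gave 32.6% ± 2.97 and 50.5% ± 0.419 (SD, n = 3), lower downstream in 3 of 3. None of the 20 strongest summits of the list was a member, and 18 members (4.14%) were among the strongest 607, against 266 upstream summits (10.8%). As members were 7.17% of the list, few would fall among any 20 summits, so the first of these counts shows little by itself. Fisher's tests treat summits as independent, although some share a region or a gene.

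The strongest members included genes of protein synthesis, protein turnover and ion transport. Paip2, which encodes a translational repressor that binds poly(A)-binding protein, led with a signal of 13947 and ranked 23 of 6070. Its summit was 58 bp downstream of the start in the IDR list and 51, 91 and 55 bp downstream in replicates 1, 2 and 3, where its region ranked 34, 18 and 24. Rpn10, a ubiquitin receptor of the proteasome, followed with a signal of 10851 at 22 bp, at 20, 23 and 16 bp in the replicates, with region ranks of 86, 142 and 78. These 2 sites kept their side of the start in every library.

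RpS30, a ribosomal protein gene, had a signal of 9708 at 7 bp. Its replicate summits were 7 bp downstream, 15 bp downstream and 1 bp upstream, so the side was not the same in every library. Plap, the fly phospholipase A2 activator protein, had a signal of 9417 at 1 bp, and 42, 1 and 26 bp in the replicates. Atpalpha, the sodium pump subunit, had a signal of 8031 at 6 bp, and lay 5 bp downstream in replicate 1 and 5 bp upstream in replicates 2 and 3. OstDelta, a subunit of the oligosaccharyltransferase, had a signal of 9588 at 64 bp and stayed 56 to 64 bp downstream in the replicates.

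The other genes of the strongest 20 were ewg, a transcription factor related to NRF1 (signal 7866), Nipsnap (7835), CG30373 (7464), pug, an enzyme of folate metabolism (7130), sw, the dynein intermediate chain (7027), pita, a zinc finger boundary protein (6946), ND-ASHI, a subunit of respiratory complex I (6324), CG3732 (5679), Pat1, a kinesin-associated protein (5395), and SERCA, the calcium pump of the endoplasmic reticulum (5325). CGATA stood within 100 bp of 19 of the 20 summits, the exception being CG30373, and TATCGATA at 11. The last region rank of these 20 in any replicate was 805, for SERCA in replicate 1. Within 50 bp of the start lay 14 of them, and 3 were more than 100 bp away, at Ptpmeg2, BEAF-32 and Sik3.

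Those 3 strong sites well inside the transcribed region had no other IDR summit within 500 bp. Ptpmeg2, a protein tyrosine phosphatase, had a signal of 8831 at 175 bp in the 5′ UTR, and its replicate summits were 181, 177 and 180 bp downstream. The gene BEAF-32 itself had 2 member summits, of which the stronger (8557) lay 216 bp downstream of an internal start in a coding exon, and 1048 bp from the gene's outermost start. That summit was at 257, 179 and 225 bp in the replicates. The other (6672) was 32 bp downstream of the outermost start, at 16, 22 and 32 bp in the replicates, and both lay in a single region of each replicate. Sik3, a salt-inducible kinase, had a signal of 6317 at 201 bp in an intron, and 197, 201 and 202 bp in the replicates.

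The limits of the rule cut through continuous values. At 0 bp there were 14 members, the strongest being viaf (5050) and p24-1 (4654), and 1 bp upstream there were 16 summits, the strongest being CkIIbeta (10356) and cyst (9989). At the far end Vdup1 (signal 416, 455 bp) and dally (169, 475 bp) were the last inside, and grk (190, 505 bp) and e(y)2b (160, 512 bp) the nearest outside.

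**Figure D2:**
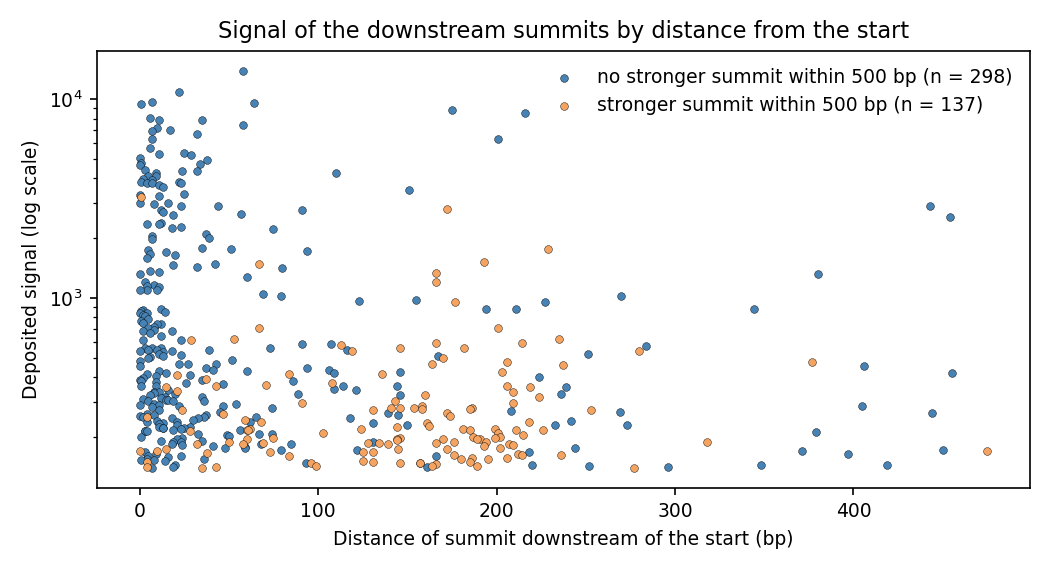
Deposited signal of each of the 435 downstream summits (log y axis) against its distance from the start in bp. Blue points (298) have no stronger IDR summit within 500 bp and orange points (137) have one; most orange points lie below a signal of 1000, many of them near 200 bp.

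How many summits stayed downstream in each library differed with distance. The nearest summit of each whole replicate list, if within 250 bp, was on the downstream side within 500 bp in all 3 replicates for 282 of the 435 members (64.8%), in 2 for 92, in 1 for 44 and in none for 17. Within 50 bp of the start, 99 of 227 members (43.6%) kept their side in every replicate. From 51 to 100 bp it was 43 of 51 (84.3%) and beyond 100 bp 140 of 157 (89.2%). The median shift along the gene was 4 bp toward the start in replicate 1, 0 bp in replicate 2 and 2 bp toward the start in replicate 3, and the median size of the shift was 14, 12 and 10 bp. Near the start these shifts are as large as the distances themselves, so the side of a near member is set only to within that spread.

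Most sites lay in strong regions of all 3 libraries. The IDR list was made from these same replicates by agreement of ranks, so a high share follows from that choice. A summit counted as found when it lay inside 1 of the 6070 strongest regions of a replicate. Of the members 333 (76.6%) were found in all 3 replicates, against 1990 upstream summits (80.6%) and 79.8% of the whole list (odds ratio against upstream 0.786, bounds 0.613 and 1.01, adjusted exact p = 0.11). For the summits of each separate list, the share found in both other replicates was taken instead. Its direction was not the same in every list, with 86.0% downstream against 83.5% upstream in replicate 1, 89.8% against 95.8% in replicate 2 and 84.7% against 85.7% in replicate 3. In 2 replicates 50 members were found, in 1 replicate 35 and in none 17. In the whole replicate lists the shares were 94.7% and 97.8% (odds ratio 0.401, adjusted exact p = 0.00296), so the call depends on how many regions of each library are used. The comparison also passed the threshold when only replicates 1 and 3 were counted, with 82.3% against 90.1% (odds ratio 0.512, adjusted exact p = 2.86e-05).

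Many members had a neighbour, and the distance between both was nearly fixed. Another IDR summit lay within 500 bp of 189 members (43.4%), against 555 upstream summits (22.5%) and 30% of all summits (odds ratio against upstream 2.65, bounds 2.13 and 3.29, adjusted exact p = 1.38e-17). The replicates gave 59.1% ± 12.3 downstream and 38.1% ± 10.9 upstream (SD, n = 3), higher downstream in 3 of 3. The gap to the nearest neighbour had quartiles of 201 and 217 bp and a median of 206 bp, and 163 of the 189 gaps (86.2%) were 190 to 230 bp. At upstream summits 88.1% of such gaps were in that range. The shortest gap between any summits was 199 bp in the IDR list and in each of the 3 whole replicate lists. In 150 of the 189 cases both summits were in the same region. The labels and files used here do not name the caller, and whether the fixed spacing was set by the caller was not tested.

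The nearest neighbour was the stronger of the pair for 135 of the 189 members (71.4%), and that of the farther members often lay at the start. At upstream summits with a neighbour it was the stronger in 238 of 555 (42.9%). Beyond 100 bp, 107 of 157 members (68.2%) had a neighbour, at a median of 23 bp upstream of the same start. The neighbour was stronger in 96 of the 107 (89.7%). CGATA was within 100 bp of 35 of these members (32.7%) and 75 of their neighbours (70.1%). Beyond 100 and up to 200 bp, where the mound of counts lay, 72 of 92 members (78.3%) had a neighbour. Upstream summits at that distance had one in 24.0% of cases. None of the 92 members had motif 1. From 201 to 500 bp the shares with a neighbour were 53.8% of members and 53.3% of upstream summits, so they were close there. Within 50 bp of the start 59 of 227 members had a neighbour, which was the stronger in 21.

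**Figure D3:**
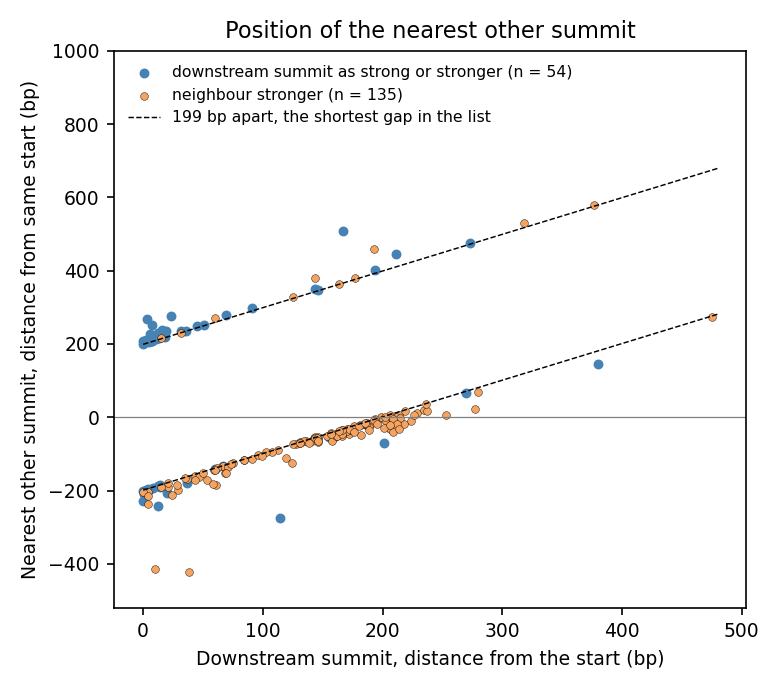
Position of the nearest other IDR summit (y axis, bp from the same start) against the position of the downstream summit (x axis, bp) for the 189 members that have one within 500 bp. Orange points (135) have a stronger neighbour and blue points (54) do not; most points lie along the dashed lines, which mark 199 bp, the shortest gap in the list, and orange points on the lower line meet the start when the member is about 200 bp downstream.

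Pairs of this kind were found at genes of several roles. TTLL4B, a tubulin ligase-like gene, had a member of signal 2803 at 172 bp beside a summit of 7447 that was 45 bp upstream of the start. At ND-15, a complex I subunit, a member of 541 at 119 bp stood beside 3799 at 110 bp upstream. At dsh, a Wnt pathway component, a member of 582 at 113 bp stood beside 2278 at 89 bp upstream. At tkv, a Dpp receptor, both summits were members: 2992 at 16 bp and 458 at 237 bp. E2f2, a repressor of cell cycle genes, had a member of 1520 at 193 bp. Its stronger neighbour (4408), 458 bp from that start, was itself a member, 3 bp downstream of the start of Mpp6, which overlaps E2f2 on the opposite strand.

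When every summit with a stronger IDR summit within 500 bp was left out, 298 members (11.8% of the summits at non-divergent starts) and 2228 upstream summits remained. The replicate lists treated in the same way gave 271 (11.2%), 283 (13.5%) and 291 (12.3%), where the full lists had run from 421 to 679. This selection was made after the data were seen. Among the 298, 206 were within 50 bp of the start and 60 beyond 100 bp. The share in the upper 50% by signal was 41.9% against 53.4% upstream (odds ratio 0.63, adjusted exact p = 0.0027); the selection itself leaves out weaker summits in both classes. The neighbour comparison lost its call (17.4% against 14.1%, odds ratio 1.29, adjusted exact p = 0.353), and here too the selection acts on the measure.

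CGATA was less common at the members than at upstream summits. It was within 100 bp of 219 of 435 members (50.3%), against 1475 of 2469 upstream summits (59.7%) and 58.3% of all summits (odds ratio 0.683, bounds 0.554 and 0.843, adjusted exact p = 0.00118). The replicates gave 47.4% ± 3.21 and 60.3% ± 1.03 (SD, n = 3), lower downstream in 3 of 3. Without summits beside a stronger one the shares were 58.7% and 62.7% (odds ratio 0.848, 0.659 to 1.09, adjusted exact p = 0.391), and within 50 bp of the start 60.8% and 68.6% (adjusted exact p = 0.124). In the upper 50% of the list by signal they were 79.4% and 82.3% (adjusted exact p = 0.716). The difference thus did not pass the threshold in any of these 3 sets, and the odds ratio within 50 bp was 0.711, close to that over all distances. Beside a stronger summit, 44 of 137 members (32.1%) and 79 of 241 upstream summits (32.8%) had CGATA, so the low share was found in both classes.

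The share with CGATA was lower beyond 100 bp than near the start on both sides. Downstream it was 69.0% from 0 to 10 bp, 56.3% from 11 to 25 bp, 51.1% from 26 to 50 bp, 45.1% from 51 to 100 bp, 32.6% beyond 100 and up to 200 bp and 43.1% from 201 to 500 bp. Upstream it was 61.5%, 65.4%, 71.7%, 64.7%, 48.0% and 41.4% in the same classes, highest at 26 to 50 bp. Signal followed a like order, with downstream medians of 683 in the first class and 243 beyond 100 and up to 200 bp. Upstream medians were 524 and 498 in these classes, and highest at 26 to 50 bp (864).

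Members with more copies of CGATA had higher signal. Counting each strand, so that a TATCGATA counts as 2, the median signal was 245 at the 216 members with no copy, 334 at 91 with 1, 686 at 63 with 2, 1531 at 36 with 3 and 3819 at 29 with 4 or more. Upstream summits gave 326, 521, 1305, 2929 and 3819. These are descriptions across summits, which are not replicates.

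The string at the members near the start stood on both sides of it. Of the 138 members within 50 bp that had a copy, the copy nearest the summit was centred downstream of the start in 80, upstream in 55 and at the start base in the rest. The median distance from copy to summit was 15 bp for these and 35 bp for the 58 members beyond 100 bp. Leaving out members with TATCGATA, which reads the same on both strands, the copy was on the gene's strand in 86 of 162 members (53.1%, 95% Wilson interval 45.4 to 60.6, counting error only).

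The string was next compared around the starts, in 50 bp bins. Starts with a member within 50 bp had CGATA in 91 of 227 cases (40.1%) in the bin just upstream and in 68 of 227 in the bin just downstream. Of 2287 starts with an upstream summit 862 (37.7%) and 342 had it, and of unbound starts 7.24% and 6.97%. Starts with a member beyond 100 bp had 34.8% just upstream and 14.2% just downstream, close to the values at upstream summits, and 12.3% from 150 to 199 bp downstream against 6.34% at upstream summits. The rule picks summits by position, so where these profiles differ is a description.

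**Figure D4:**
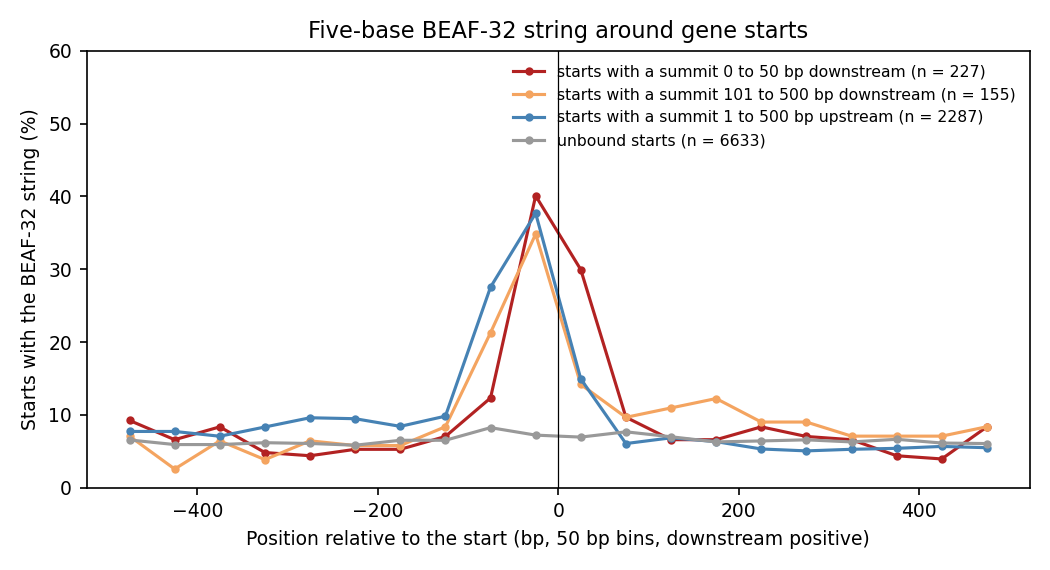
Share of starts (y axis, %) with the BEAF-32 string on either strand in each 50 bp bin around the start (x axis, bp, downstream positive). The bin just upstream is the highest for the 3 bound groups, the bin just downstream holds it at 68 of 227 starts with a summit 0 to 50 bp downstream against 342 of 2287 starts with an upstream summit, and unbound starts stay under 9% throughout.

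Against starts without BEAF-32-GFP, the transcribed side of the members' starts was rich in the string. From 1 to 300 bp downstream, CGATA was found at 214 of the 417 distinct starts of the members (51.3%) and at 2221 of 6633 non-divergent genes with no summit within 1000 bp of any start (33.5%; odds ratio 2.09, bounds 1.71 and 2.57, unadjusted Fisher's exact p = 4.59e-13). Over the libraries the shares were 51.2% ± 1.91 and 33.4% ± 0.117 (SD, n = 3). Without summits beside a stronger one the members' share was 55.7% (odds ratio 2.50), and in the upper 50% by signal 73.7% (odds ratio 5.57). Members were chosen for a summit on that side and unbound genes for having none. A higher share at the members' starts thus follows largely from the choice, and the p-value adds no support beyond it. The upper 50% was also chosen by signal, which was higher at members with more copies.

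Each member beyond 100 bp was also compared with its mirror site, the same distance upstream of the start. CGATA was within 100 bp of 58 of the 157 summits (36.9%) and 40 of the mirror sites (25.5%), with 44 members that had it at the summit only and 26 at the mirror only (exact McNemar test, two-sided, p = 0.0414). The first site was chosen for a called summit, and the mirror site was taken whether or not one was called there. A higher share at the summit thus follows largely from the choice, and the p-value adds no support beyond it. The call was lost when any replicate was left out (8.70 to 9.17 percentage points higher at the summit), and with windows of 150 bp the shares were 46.5% and 45.9% (exact McNemar p = 1). The separate libraries did not all show this direction: replicate 1 gave 33.5% and 29.8%, replicate 2 29.8% and 36.9%, and replicate 3 30% and 34.3%. Among the 60 members without a stronger neighbour 28 had CGATA at the summit (46.7%) and 10 at the mirror site (16.7%). The same selection gave 22 against 4 of 51 in replicate 1, 24 against 5 of 45 in replicate 2 and 22 against 11 of 49 in replicate 3. It removes members with a stronger summit near the mirror site, so these counts carry no test.

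Other promoter strings were searched in the same windows. TATCGATA was within 100 bp of 57 members (13.1%), 445 upstream summits (18.0%) and 16.9% of all summits (odds ratio 0.686, bounds 0.5 and 0.927, adjusted exact p = 0.0342). It was lower downstream in 3 of 3 replicates, with 11.5% ± 1.86 against 18.6% ± 0.516 (SD, n = 3). The call, though not the direction, was lost without replicate 2 (15.6% against 19.6%, odds ratio 0.763, adjusted exact p = 0.152) and without replicate 3 (16.5% against 21.5%, odds ratio 0.724, adjusted exact p = 0.0919). Without summits beside a stronger one the shares were 18.8% and 19.6% (odds ratio 0.951, adjusted exact p = 0.883), and from 50 bp on 3.33% and 14.2% (odds ratio 0.209, adjusted exact p = 5.59e-06). Within 50 bp of the start 51 of 227 members (22.5%) had it, and beyond 100 bp 4 of 157 (2.55%). Motif 1 was at 33 members (7.59%), 261 upstream summits (10.6%) and 8.27% of all summits (odds ratio 0.695, 0.461 to 1.02, adjusted exact p = 0.11), and 28 of the 33 were within 50 bp. Motif 1 was lower downstream in 3 of 3 replicates. It passed the threshold without replicate 1 (odds ratio 0.535, adjusted exact p = 0.0151) and without replicate 3 (odds ratio 0.576, adjusted exact p = 0.0335).

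GAGAG, the string of GAGA factor, was at 17.7% of members, 17.0% of upstream summits and 16.1% of all summits (odds ratio against upstream 1.05, 0.794 to 1.38, adjusted exact p = 0.793). CAGCTG, an E-box, was at 18.6%, 18.1% and 15.7% (odds ratio against upstream 1.04, 0.788 to 1.36, adjusted exact p = 0.793). Within 100 bp of the 19252 coding starts, GAGAG was found at 24.99% and CAGCTG at 13.4%. The share at members was thus below that at all starts for GAGAG and above it for CAGCTG, and these differences were not tested. TATAAA stood 15 to 45 bp upstream of the start at 1.15% and 1.90% (odds ratio 0.599, 0.185 to 1.51, adjusted exact p = 0.43). Over the replicates GAGAG and CAGCTG were higher downstream in 2 of 3, and TATAAA was lower in 3 of 3. These intervals bound the differences but do not show that the classes are alike.

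Members were more often nearest to a gene with several starts, though not at every distance. The class is set by the nearest of all annotated starts, so extra starts bear on the class as well as on the measure. The nearest gene had more than 1 annotated coding start at 220 members (50.6%), 1053 upstream summits (42.6%) and 41.6% of all summits (odds ratio 1.38, bounds 1.12 and 1.7, adjusted exact p = 0.00765). The replicates gave 49.6% ± 2.49 and 42.5% ± 0.621 (SD, n = 3), higher downstream in 3 of 3. The share was lower downstream from 0 to 10 bp (35.0% against 45.2%) and beyond 100 and up to 200 bp (51.1% against 54.8%). It was higher from 11 to 25 bp (40.0% against 35.3%) and from 26 to 50 bp (61.7% against 33.9%). The same held from 51 to 100 bp (78.4% against 42.3%) and from 201 to 500 bp (56.9% against 48.7%). Without summits beside a stronger one it was 52.7% against 42.5% (odds ratio 1.51, adjusted exact p = 0.00625), and within 50 bp of the start 42.3% against 35.8% (odds ratio 1.31, adjusted exact p = 0.179). In the upper 50% by signal the shares were 61.0% and 43.0% (odds ratio 2.07, adjusted exact p = 0.000322). With outermost starts only, they were 55.3% and 29.2% (odds ratio 3.00, adjusted exact p = 3.32e-25). That setting reclasses mainly summits nearest an internal start, which are at genes with several starts. It thus acts on the measure itself, and its larger value adds no support. For 61 members the nearest start was an internal one, with the summit more than 500 bp from the gene's outermost start. One such member is at dpp, the gene of a BMP-type ligand, 74 bp from its nearest start and 22931 bp inside the gene.

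Long genes, the X chromosome and antisense transcripts did not separate the classes beyond the threshold. Genes longer than the coding median of 2166 bp made up 65.1% of members, 68.6% of upstream summits and 65.6% of all summits (odds ratio against upstream 0.852, 0.684 to 1.06, adjusted exact p = 0.213). The X held 19.8%, 19.3% and 19.7% (odds ratio 1.03, 0.789 to 1.34, adjusted exact p = 0.793). A non-coding gene starting within 1000 bp upstream on the opposite strand was found at 3.91%, 5.95% and 3.67% (odds ratio 0.643, 0.36 to 1.08, adjusted exact p = 0.149). The members were thus close to the whole list in all of these. Long genes and antisense starts were lower downstream than upstream in 3 of 3 replicates, and the X higher in 2 of 3. In all 13 comparisons, 5 passed the threshold of 0.05: signal, neighbour, CGATA, TATCGATA and several starts.

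**Figure D5:**
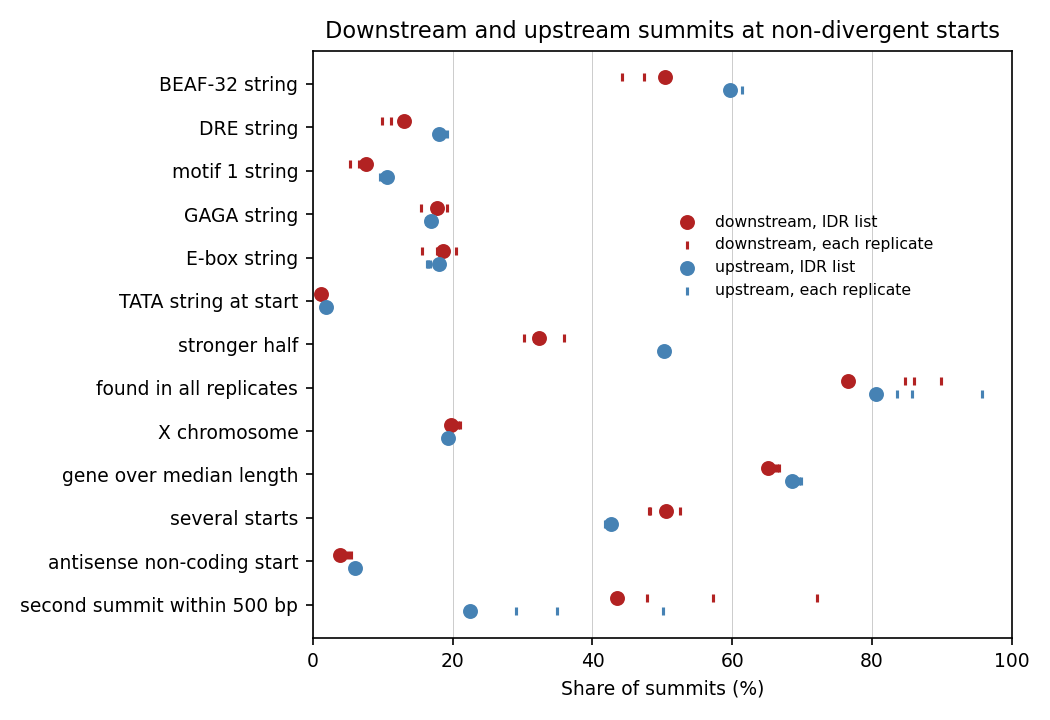
Share of downstream (red) and upstream (blue) summits with each of 13 features (x axis, %). Large points are the IDR list and ticks are the 6070 strongest regions of each replicate. For the share found in all replicates, a tick counts summits found in both other replicates. The widest separations are the share in the upper 50% by signal (32.4% and 50.2%) and the share with a neighbouring summit (43.4% and 22.5%).

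By annotation of their own gene, 338 members (77.7%) lay in the 5′ UTR, 49 in an intron, 47 in a coding exon and 1, at the short gene CG13454, in a 3′ UTR. Near the start 226 of 227 were in the 5′ UTR. Beyond 100 bp 69 were in the 5′ UTR, 45 in an intron and 42 in a coding exon. The median signal was 394 in 5′ UTRs, 279 in introns and 215 in coding exons. Of the 97 members beyond 100 bp with a stronger neighbour 37 were in a coding exon, and of the 60 without one 5 were.

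The 411 genes were 2.95% of the 13945 coding genes, and 387 of them had 1 member and 24 had 2. At 155 of the 411 an upstream summit was also present. Of the 411, 41 were in 1 or more of 18 lists of gene functions, and most lists held few of them. Genes in head-to-head pairs could not be members unless a start of theirs lay elsewhere, and the lists differ in how many genes lie outside such pairs: 5 of 32 spliceosome genes, 17 of 73 mitochondrial and 38 of 93 cytoplasmic ribosomal protein genes, 12 of 23 boundary factors and 125 of 136 cuticle genes. The boundary and promoter factor list held 5 of 23 genes (21.7%): BEAF-32, pita (6946), CTCF, a boundary protein shared with vertebrates (4248), Chro, a chromodomain protein of interbands (235), and Trl, the gene of GAGA factor (141). BEAF-32, pita and CTCF were found in all 3 replicates, Chro in 2 and Trl in 1.

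In the signalling list 7 of 77 genes had a member (9.09%), led by tkv (2992), Med, a Smad protein (836), and dsh (582). The respiratory chain list held 7 of 92 (7.61%), led by ND-ASHI, COX7AL2, a cytochrome oxidase subunit copy (877 at 344 bp), and SdhD, a subunit of complex II (559). Translation factors held 4 of 54 (7.41%), with eIF3h (786), eIF3j (218) and eIF3d1 (188) leading, and small GTPases with their regulators 5 of 68 (7.35%), led by Rab19 (4341), Arf1 (1584) and RasGAP1 (1026 at 270 bp). DNA replication held 3 of 41 (7.32%): Claspin (303), Mcm3 (181) and RPA2 (141). The Polycomb and Trithorax list held 3 of 44 (6.82%), namely Su(z)2 (325), ph-p (212) and Trl.

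Cell adhesion and cytoskeleton genes held 3 of 52 (5.77%), with Moe, the fly moesin (4760), cpb, the capping protein beta subunit (3710), and arm, the fly beta-catenin (463). Patterning factors held 2 of 51 (3.92%), ey, the Pax6 gene of the eye (686), and Trl. Mitosis and cell cycle genes held 1 of 47 (E2f2), proteasome subunits 1 of 48 (Rpn10), cytoplasmic ribosomal proteins 1 of 93 (RpS30), mitochondrial ribosomal proteins 1 of 73 (mRpL40, 192) and chemoreceptors 1 of 179 (Ir76a, 161 at 84 bp, beside a summit of 998). The spliceosome, neuronal, cuticle and heat shock lists held 0 of 32, 40, 136 and 36. For comparison, 31 of the 93 cytoplasmic ribosomal protein genes (33.3%) and 19 of the 47 mitosis and cell cycle genes (40.4%) had an upstream summit. Among all 13945 coding genes 2197 had one. In the other lists the share ran from 0% (cuticle proteins and chemoreceptors) to 37.0% (translation factors), with 15.6% of spliceosome and 15.1% of mitochondrial ribosomal protein genes. The lists hold from 0 to 7 members each, so these counts are given without a test.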

How the data were processed

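Peak lists in the dm6 build were used: 1 list per replicate and the IDR list. Per the accompanying text files, the authors made each replicate list from that replicate's alignment with a control alignment, and the IDR list from replicate and pooled lists. Per the labels, dm6 was the assembly; no aligner, caller, version or threshold is named in the labels or files used here. The authors' deposited signal and summit offset were used as they stand, the signal as a score. Signal was compared only within a list. Replicate lists held 26497, 30000 and 30000 summits, and each was cut to its 6070 strongest for comparison. Where a replicate was left out, the IDR list was not remade. Its summits inside the 6070 strongest regions of each other replicate were used, and only those replicates were counted. For the share found in all replicates, all summits stayed in. Depth is unknown.

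Coding genes and starts came from Ensembl BDGP6.54, release 115, and bases from the same assembly. Of the head-to-head pairs, 2240 were set aside. A summit equally far from several starts was given to the start it lay downstream of (1 member). Rank in a replicate is that of the strongest summit of the region holding the summit. CGATA and other strings were searched on both strands within 100 bp of the summit. Benjamini-Hochberg adjustment ran over the 13 Fisher's exact tests of downstream against upstream summits. The mirror and unbound-start tests stand alone. The members and lists were chosen with earlier results of these data known. Genes were named by rule: those at the 20 strongest members, up to 3 leading members of each list and the summits at the limits. TTLL4B, Tango10, milt, Ubr3, indra, ND-15, dpp, CG13454 and others named beyond the rule were chosen after their values were seen. In the lists 23 symbols matched no gene. Sequence on chromosome arm 2R was not printed. The code was tested on simulated data. Versions were scipy 1.17.1, pandas 2.3.3, numpy 2.4.6 and matplotlib 3.10.9 under Python 3.11.15.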

Additional observations from a re-analysis of the deposited data

How the results depend on the processing

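Of 167 values under the alternatives listed for 17 results, 129 were close to the value reported, and of 33 under the 2 selections chosen after seeing the data, 18 were. For a test this means the same direction and side of the threshold, for the number of members a ratio of at most 1.5, and for the share kept downstream a value within its 95% Wilson interval. Values are odds ratios unless named, and the cause of a change was not tested except where a selection changes its own measure. The number of members was 210 from 50 bp on, 141 in the upper 50% by signal and 227 within 50 bp, by construction. The share kept downstream in every replicate was 60.05% with a 250 bp limit, 88.1% from 50 bp on, 70.2% with outermost starts, 70.2% in the upper 50%, 59.1% without summits beside a stronger one, 33.5% within 50 bp, where the replicate summit also had to lie within 50 bp, and 70.1% to 78.7% when a replicate was left out. The mirror difference, 11.5 percentage points, no longer passed at 8.46 (250 bp limit), 10.9 (strongest summit per gene), 22.2 (upper 50%), 0.637 (150 bp window) and 8.70 to 9.17 (a replicate left out). With the 150 bp window, summit and mirror windows overlap for members up to 150 bp from the start. CGATA no longer passed at 0.829 (upper 50%), 0.848 (none stronger nearby) and 0.711 (within 50 bp). TATCGATA reversed to 1.06 in the upper 50% and no longer passed at 0.951 (none stronger nearby), and 0.95 (within 50 bp); it was 0.209 from 50 bp on. With a replicate left out it was 0.70 to 0.763, passing at 0.70 only. Motif 1 passed at 0.293 from 50 bp on, was 0.535 to 0.615 with a replicate left out and 0.943 with a 50 bp window. Found in all replicates passed at 0.718 (250 bp), 0.693 (per gene) and 0.401 (whole lists), with 0.512 to 0.917 when a replicate was left out. CAGCTG reversed to 0.973 (250 bp), 0.958 (per gene), 0.944 (upper 50%), 0.972 (overlapping starts set aside too), 0.944 (50 bp window) and 0.842 (within 50 bp), and passed at 1.34 with outermost starts. TATAAA reversed to 1.29 (outermost), 2.23 (upper 50%) and 1.66 (within 50 bp), and GAGAG to 0.828 (upper 50%) and 0.988 (none stronger). The X reversed to 0.951 (overlapping), 0.949 (none stronger) and 0.997 (within 50 bp). Long genes passed at 0.778 with outermost starts and reversed to 1.07 within 50 bp. Several starts no longer passed at 1.31 within 50 bp, nor the neighbour at 1.29 without stronger summits. Further from the null were several starts at 3.00 (outermost) and 2.07 (upper 50%), the neighbour at 4.14, signal at 0.301 and TATAAA at 0.189 (all 3 from 50 bp on), the unbound-start comparison at 5.57 and found in all replicates at 0.227 (both upper 50%), and the mirror difference at 19.1 (outermost). The 0.227 rested on 140 of 141 members and 1237 of 1239 upstream summits (bounds 0.0117 and 13.4). The 0.189 rested on 1 of 210 members and 36 of 1459 upstream summits (bounds 0.00464 and 1.14). Neither passed the threshold. The outermost setting reclasses mainly summits nearest an internal start, so for several starts it acts on the measure itself. Signal had no value in the upper 50%, and the mirror none within 50 bp. No paired analysis was possible because the 3 replicates form 1 group. Depth is unknown, so limits of detection were not set.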
